A study of Mus musculus with 9 samples.

Results

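RAW264.7 cells are a mouse macrophage-like line, and 92 genes in them were lower with lipopolysaccharide (LPS) than without it and lower again in cells given both sodium butyrate (NaBu) and LPS. These genes were chosen by their measured values. The group means of the normalised counts were each raised by 1, and a gene was taken when the control mean was at least 1.8 times the LPS mean, the LPS mean at least 1.5 times the LPS+NaBu mean, and the control mean at least 100. The files list 43629 genes, of which 10525 had a control mean of at least 100, so the members are 0.874% of the genes that could have been taken. All 3 contrasts between the groups went into the choice, so the members' own changes are given as a description, and no test on them is used as support. Both steps also share the LPS mean.

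LPS, the endotoxin of Gram-negative bacteria, acts through Toll-like receptor signalling and, besides inducing inflammatory genes, turns many macrophage genes down. Butyrate is a short-chain fatty acid made by gut bacteria. It inhibits histone deacetylases and slows the division of many cultured cells. Genes of the last phases of the cell cycle are held down in resting cells by a repressor built on the MuvB core and are switched on in dividing cells by B-Myb and FOXM1. Their promoters often carry a CHR element (cell cycle genes homology region), which MuvB contacts, and CCAAT boxes, which are bound by NF-Y.

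The 9 libraries fall into 3 groups of 3, namely untreated cells (Control), cells given LPS (LPS), and cells given NaBu and LPS (LPS+NaBu), where the study describes NaBu as a pretreatment before LPS. All are the same line, which was transformed by Abelson murine leukaemia virus and divides in culture. The labels give neither dose nor time, the series calls the replicates biological without saying that they were separate cultures, and cells given NaBu without LPS were not analysed here. The values are gene counts divided by 1 size factor per library, called normalised counts, and the libraries held 37.6 to 64.4 M reads in genes. In bulk RNA, fewer cells of a kind (such as dividing cells) and less RNA per cell cannot be told apart.

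All 10 macrophage markers were detected, and none of them is a member. Their summed level ran from 501057 to 516451 for Control, from 653917 to 696719 after LPS and from 236473 to 257341 after LPS+NaBu. Lyz2 was the largest part of this sum, and single markers moved apart. With LPS the means of Emr1, Fcgr1, Cd68, Itgam, Mpeg1, Cd14 and Lyz2 were higher, and those of Csf1r, Laptm5 and Tyrobp lower. The Csf1r mean fell at both steps, from 42749 to 25016 and then to 6536. The Laptm5 mean went from 33370 to 18077 and then to 16137. Of 8 fibroblast markers, Lum was at 0 in every library and 4 reached a mean of 10 in some group. Their sum ran from 6.36 to 12.1 for Control, from 13.03 to 18.8 after LPS and from 272 to 296 after LPS+NaBu, and its part in the results was not tested. The 5 endothelial markers, of which 3 reached a mean of 10 in some group, summed to 1859 to 1997 for Control, 942 to 1015 after LPS and 1132 to 1236 after LPS+NaBu. The 8 T cell markers, of which 2 reached that mean, summed to 435 to 490.1 for Control, 1302 to 1474 after LPS and 225 to 241 after LPS+NaBu. The sums of B cell and neutrophil markers, with Ms4a1 and S100a9 at 0 in every library, stayed at or below 112 and were highest with LPS, and those of epithelial and hepatocyte markers stayed at or below 18.6. The part of these lists in the results was not tested.

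The largest group among the members, 22 genes, came from a list of mitosis genes. The stretches from 170 bases before to 30 bases after the transcription start are shown for 4 of them, because the promoter letters are a feature that the choice of members did not use. They are the mitosis members among the genes named below by fall or by list for which a RefSeq promoter was also at hand, and they are read from GRCm39 in the direction of the gene at the GENCODE M39 canonical start. Capitals mark the CHR letters, TTTGAA, and the CCAAT box, each read on either strand. Fbxo5 lies on the minus strand at chr10:5755884-5756083, Kif15 on the plus strand at chr9:122779941-122780140, Racgap1 on the minus strand at chr15:99549508-99549707 and Mybl2 on the plus strand at chr2:162896265-162896464.
Fbxo5: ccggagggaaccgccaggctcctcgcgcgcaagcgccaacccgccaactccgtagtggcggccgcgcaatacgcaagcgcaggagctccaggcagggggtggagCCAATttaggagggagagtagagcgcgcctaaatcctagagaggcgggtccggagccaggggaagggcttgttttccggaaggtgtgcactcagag
Kif15: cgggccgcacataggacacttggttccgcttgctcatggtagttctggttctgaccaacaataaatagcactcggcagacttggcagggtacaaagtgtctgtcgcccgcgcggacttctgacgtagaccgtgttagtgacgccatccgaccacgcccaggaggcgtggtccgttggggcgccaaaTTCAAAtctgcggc
Racgap1: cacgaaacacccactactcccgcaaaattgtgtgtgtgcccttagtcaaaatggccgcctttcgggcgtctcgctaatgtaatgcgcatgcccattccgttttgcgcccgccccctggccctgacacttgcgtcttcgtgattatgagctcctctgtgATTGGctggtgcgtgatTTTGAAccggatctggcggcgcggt
Mybl2: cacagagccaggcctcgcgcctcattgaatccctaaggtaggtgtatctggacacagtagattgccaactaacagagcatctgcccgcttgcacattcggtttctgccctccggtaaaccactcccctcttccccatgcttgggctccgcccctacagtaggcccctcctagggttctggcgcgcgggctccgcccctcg
Racgap1 held a CCAAT box just before the start and a CHR just after it, Kif15 held a CHR after the start, Fbxo5 held a CCAAT box, and the Mybl2 stretch held neither. The whole stretch lay inside the RefSeq promoter window of Kif15 and Racgap1. For Fbxo5 and Mybl2 it did not, and the reason was not tested.

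Among the 92 members, the control mean was 1.81 to 5.67 times the LPS mean, with a median of 2.02, and the LPS mean was 1.502 to 12.7 times the LPS+NaBu mean, with a median of 2.64. From Control to LPS+NaBu the fall was 2.77-fold to 40.1-fold, with a median of 5.66-fold. Over all 10525 genes with a control mean of at least 100, the same medians were 1.04, 1.06 and 1.05. A fall of at least 10-fold was seen for 19 members and one of under 4-fold for 23.

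Replicates were close beside these differences. The coefficient of variation over 3 libraries had a median over the members of 3.79% for Control, 7.19% for LPS and 7.11% for LPS+NaBu. In all 92 members every Control library was above every LPS library and every LPS library above every LPS+NaBu library, an order found in 9.71% of the 14808 genes tested. All 92 were also called lower in each of the 3 contrasts by limma at an adjusted p under 0.05. Over all genes tested, 30.8% were called lower with LPS than in Control, 37.8% with LPS+NaBu than with LPS and 35.1% with LPS+NaBu than in Control. These counts follow from how the members were taken and are no evidence of their own.

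**Figure D1:**
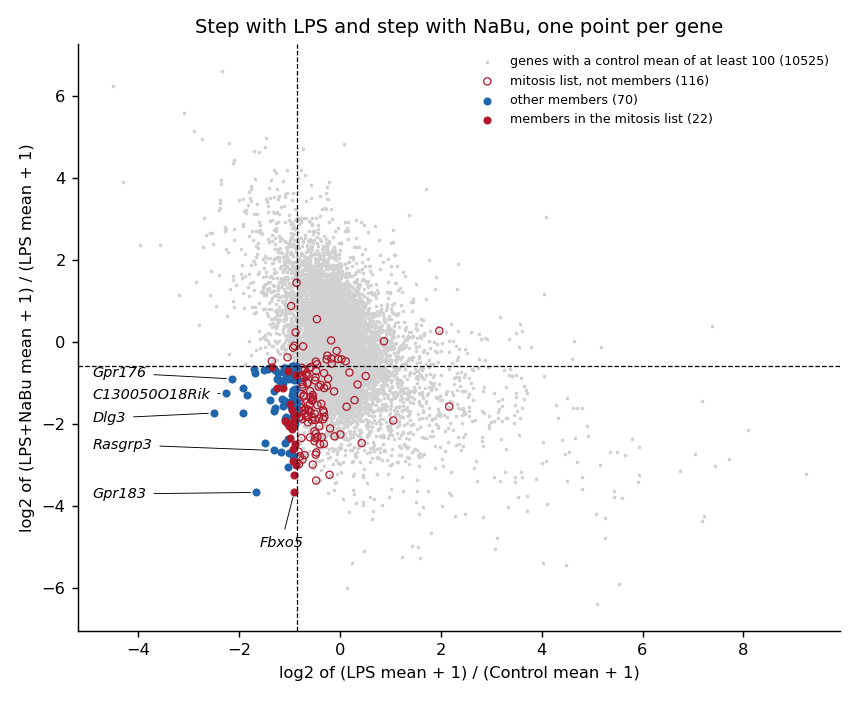
Each point is a gene with a control mean of at least 100. The x axis is the log2 ratio of LPS to Control, the y axis the log2 ratio of LPS+NaBu to LPS, both on group means plus 1, and the dashed lines are the thresholds of 1.8-fold and 1.5-fold. The 22 members in the mitosis list (filled red) lie just left of the vertical line, next to the 116 other genes of that list (open red), while the members farthest to the left, such as Dlg3 and C130050O18Rik, are not in the list.

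Members were a minority of the genes that LPS lowered. Of 693 genes at least 1.8-fold lower with LPS, 92 (13.3%) were lower again with NaBu, 445 (64.2%) were at least 1.5-fold higher with LPS+NaBu than with LPS, and 156 (22.5%) lay between. Over all 14808 genes tested, limma called 40.2% higher with LPS+NaBu than with LPS, at an adjusted p under 0.05 and without the 1.5-fold threshold. Genes picked by their LPS mean share that mean with this step. Seen from the other side, 3004 of the 10525 genes (28.5%) were at least 1.5-fold lower with LPS+NaBu than with LPS, and 2912 of these had not been lowered 1.8-fold by LPS.

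The members differed in which step held more of the fall. On the log2 scale, the step from LPS to LPS+NaBu was the larger for 53 members and the step from Control to LPS for 39. The share of the fall that lay in the LPS step ran from 19.9% to 71.8%, with a median of 43.9%. In the mitosis list 17 of 22 members had the larger step with NaBu and the median share of the LPS step was 32.9%, against 36 of 70 and 49.8% for the other members. These shares come from the ratios that the rule used and are partly set by its thresholds, so the difference is a description. None of the 9 members with at least a 3-fold lower mean under LPS was in the mitosis list. Fbxo5 held the lowest share.

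**Figure D2:**
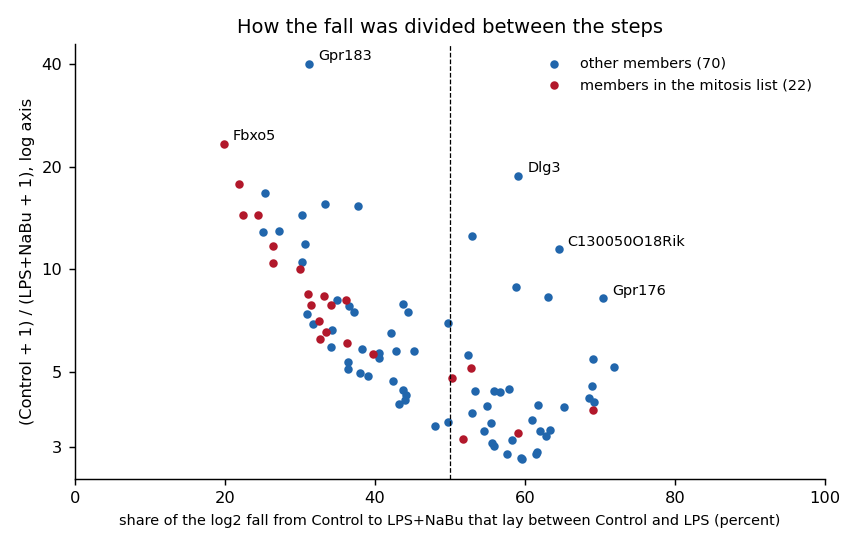
Each point is a member. The x axis is the percent of its log2 fall from Control to LPS+NaBu that lay between Control and LPS, and the y axis, which is logarithmic, is its whole fall. Of the members in the mitosis list (red), 17 of 22 lie left of the dashed line at 50%, as do 36 of the 70 other members (blue). The ranges overlap widely, since the mitosis members run from Fbxo5 at 19.9% to Depdc1b at 69.05% and the others reach 71.8%.

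Gpr183, a receptor for oxysterols that guides the movement of immune cells, had the largest fall. Its normalised counts were 2504, 2619 and 2603 in Control, 769, 903 and 763 with LPS, and 71.5, 63.6 and 54.4 with LPS+NaBu. The 3 groups were far apart, and the LPS+NaBu mean of 63.2 ± 8.55 (SD, n = 3) was 40.1-fold under the control mean of 2575 ± 62.6 (SD, n = 3). Fbxo5 encodes an inhibitor of the anaphase-promoting complex, the ligase that ends mitosis. Its counts were 1631, 1830.2 and 1658 in Control, 952, 874 and 909.5 with LPS, and 70.8, 75.8 and 69.8 with LPS+NaBu. LPS alone left Fbxo5 1.87-fold lower, and most of its 23.3-fold fall came with NaBu.

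Dlg3, a scaffold of the membrane-associated guanylate kinase family, had the largest LPS step of all members. Its counts were 473, 355 and 457 in Control, 96.2, 79.8 and 48.0 with LPS, and 26.8, 22.3 and 16.3 with LPS+NaBu. The LPS libraries of Dlg3 were uneven, but none reached the other groups. Fam64a, named Pimreg in newer annotation and expressed in dividing cells, read 4359, 4187 and 4296 in Control, 2281, 2469.6 and 2096 with LPS, and 238, 236 and 243 with LPS+NaBu. Its LPS+NaBu libraries were nearly equal, with a mean of 239 ± 3.49 (SD, n = 3). Tfap4, a basic helix-loop-helix transcription factor, read 1459, 1343 and 1375 in Control, 643, 699.6 and 702 with LPS, and 90.8, 81.4 and 74.4 with LPS+NaBu.

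Rasgrp3, an exchange factor that loads Ras and Rap with GTP, combined a 15.5-fold fall with a high level. Its counts were 27812, 29612 and 28792 in Control, 12333, 10670.5 and 11616 with LPS, and 1749, 1886 and 1914 with LPS+NaBu. Per kilobase of exon, its control level of 4238 was the second highest of the members, after Trem2. Kif15, a kinesin that holds the spindle poles apart, read 3514, 3530.4 and 3462 in Control, 2064, 1688 and 2017 with LPS, and 186, 236 and 301 with LPS+NaBu. Ccna2 encodes cyclin A, the partner of Cdk1 and Cdk2, and read 4109.7, 4330.5 and 4333 in Control, 2212, 2113 and 2335 with LPS, and 296, 294 and 294 with LPS+NaBu. For both genes the LPS libraries lay near the middle between Control and 0, and the LPS+NaBu libraries lay close to 0.

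**Figure D3:**
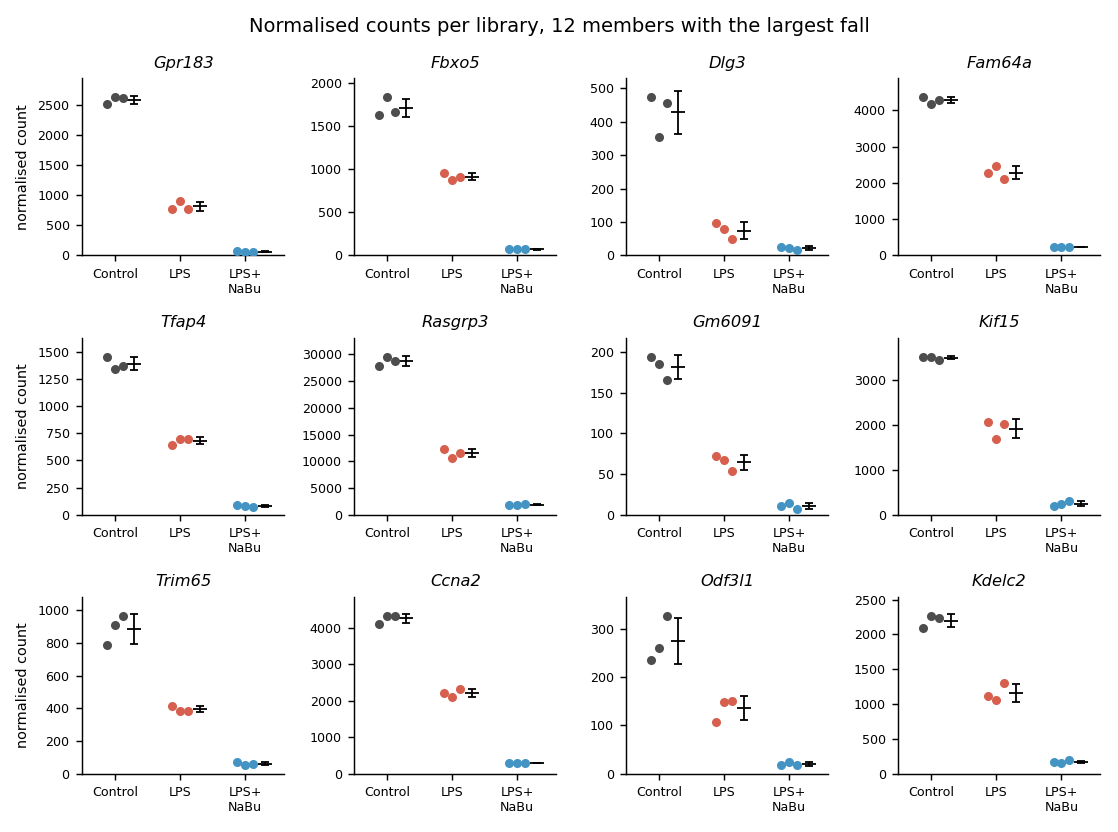
Each panel shows 1 of the 12 members with the largest fall, with the normalised count on a linear axis from 0. Dots are the 3 libraries of each group, and the bar beside them is the mean with its SD. In every panel the 3 groups are apart, with LPS between Control and LPS+NaBu, as in Gpr183 at 2575, 811 and 63.2.

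The rest of the 20 largest falls came from many roles. Trim65, a ubiquitin ligase, had a Control mean of 888 ± 91.7, an LPS mean of 395 ± 18.3 and an LPS+NaBu mean of 60.6 ± 8.78 (SD, n = 3 each), and means are given in this order of groups from here on. Neil3, a DNA glycosylase made in dividing cells, had means of 1083 ± 54.5, 507 ± 56.5 and 90.6 ± 11.0. Igfbp4, a secreted protein that binds insulin-like growth factors, had means of 8045 ± 427, 3944 ± 259 and 763 ± 39.9. All 3 were lower by at least 10-fold in the end, with 30.3% to 30.7% of the log2 fall on the LPS step. Kdelc2, an O-glucosyltransferase of the endoplasmic reticulum, had means of 2198 ± 93.1, 1159.6 ± 129 and 169.5 ± 19.8. Odf3l1, related to outer dense fibre proteins of sperm, had means of 274 ± 47.4, 136 ± 24.7 and 20.2 ± 3.77.

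Another 3 of the 20 had more of the fall on the LPS step, as Dlg3 did. C130050O18Rik read 1242, 1084 and 1173 in Control, 279, 232 and 213 with LPS, and 89.4, 124 and 89.8 with LPS+NaBu. Hdac9, a class IIa histone deacetylase, read 1752, 1967 and 1837 in Control, 602, 465 and 472 with LPS, and 199, 229.8 and 194 with LPS+NaBu. G430095P16Rik, a long noncoding RNA, had means of 189 ± 18.9, 48.8 ± 3.13 and 14.2 ± 3.498 (SD, n = 3 each). In these genes the LPS libraries were already closer to LPS+NaBu than to Control. Of C130050O18Rik's exonic bases 30.5% overlap exons of Chlsn on the other strand, which had a control mean of 3493. Of G430095P16Rik's exonic bases 16.3% overlap exons of Nfix on the other strand, which had a control mean of 876. Gm6091 is annotated as a processed pseudogene of a single exon, so its counts of 182 ± 14.8, 64.3 ± 9.54 and 10.9 ± 3.62 (SD, n = 3 each) are uncertain, since reads of its parent gene can map there.

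Chromosome segregation and cell division supplied 22 members, and 7 of the 20 largest falls. Their summed level was 143661 to 150412 in the Control libraries, 71264 to 77072 with LPS and 21201 to 22111 with LPS+NaBu. In all 22 the control mean was 1.82 to 2.54 times the LPS mean, a range whose lower end was set by the threshold of 1.8. Over the 138 genes of the list the median of this ratio was 1.51. The NaBu step ran from 1.52-fold for Depdc1b to 12.5-fold for Fbxo5, its lower end likewise set by the rule. Foxm1 and Mybl2 encode FOXM1 and B-Myb, the activators of this gene set, and both were members. Foxm1 read 6083, 6316 and 6700.1 in Control, 3246, 3312 and 3408 with LPS, and 556, 568 and 505 with LPS+NaBu. Mybl2 read 9024, 8831 and 9404 in Control, 4648, 4951 and 5076 with LPS, and 912, 847 and 844 with LPS+NaBu. The falls of the pair were 11.7-fold and 10.5-fold, and their groups did not overlap.

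Mki67 encodes Ki-67, the protein used to mark cycling cells, and had the highest control mean of all members. It read 32024, 34021 and 36345 in Control, 19020.3, 16412 and 18098 with LPS, and 4126, 4346 and 4578 with LPS+NaBu. Anln, a scaffold of the cleavage furrow, had means of 10774 ± 197, 5551 ± 494 and 1269.8 ± 121 (SD, n = 3 each). Ncapd2, a condensin subunit, had means of 10032 ± 290.3, 4562 ± 162 and 2089 ± 99.3. Racgap1, which builds the central spindle, had means of 10114 ± 244, 4984 ± 212 and 3051 ± 116. Of these abundant genes Mki67 and Anln had the larger log2 step with NaBu, Racgap1 had it with LPS, and Ncapd2 was split evenly, with 50.2% of its log2 fall on the LPS step. Esco2, which acetylates cohesin so that sister chromatids hold together, had means of 1719 ± 136, 861 ± 38.0 and 170.4 ± 23.0. The other mitosis members included Aspm, Kif11, Aurkb, Nusap1, Mad2l1, Bub1b, Espl1, Iqgap3, Depdc1b and Cdca7l. Among these are the spindle motor Kif11, the kinase Aurkb, the checkpoint proteins Mad2l1 and Bub1b, and separase (Espl1).

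**Figure D4:**
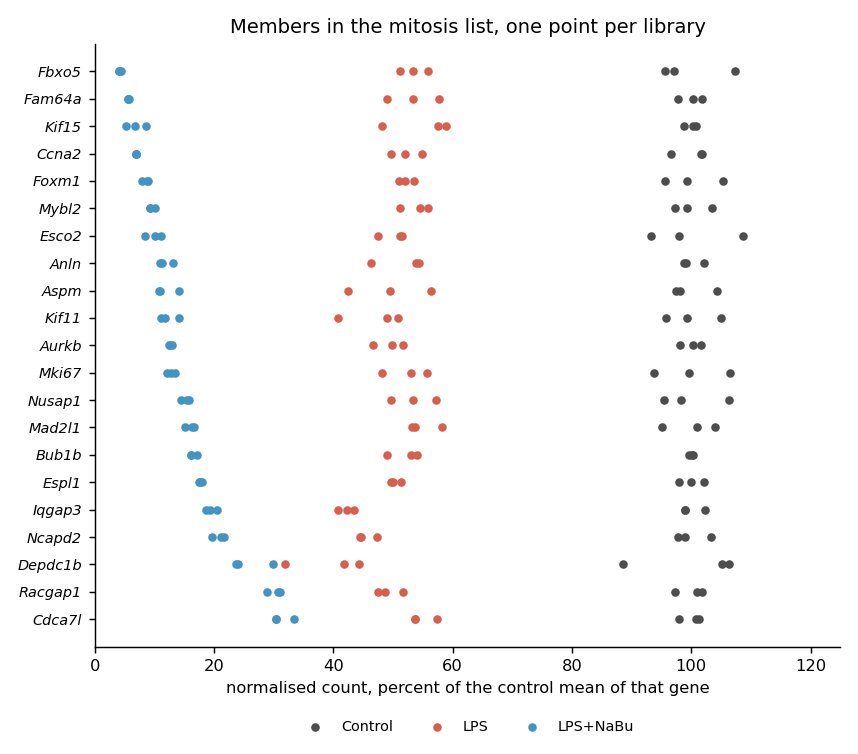
Each row is 1 of 21 members in the mitosis list and each dot a library, as a percent of the control mean of that gene. LPS libraries (orange) lie between the other groups in every row, while LPS+NaBu libraries (blue) shift from near 0 for Fbxo5 at the top (a 23.3-fold fall) to the right for Cdca7l at the bottom (a 3.18-fold fall). Depdc1b has the smallest gap between LPS and LPS+NaBu.

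Most other genes of the mitosis list were also called lower in both steps. Of 138 listed genes tested, 120 were called lower and 8 higher with LPS than in Control by limma at an adjusted p under 0.05, beside 30.8% lower and 25.2% higher over all genes. With LPS+NaBu against LPS, 128 were called lower and 5 higher, beside 37.8% and 40.2%. The median log2 fold change of the list was -0.59 with LPS and -1.504 with NaBu, against -0.05 and 0.02 over all genes tested. A mean at least 1.8-fold lower with LPS was found for 29 of the 138, beside 6.58% of genes with a control mean of at least 100. One at least 1.5-fold lower with LPS+NaBu was found for 116, beside 28.5%. Both calls were lower for 112 genes, of which 90 were not members. The share of all genes with both calls was not computed and cannot be above the 30.8% called lower with LPS. The 116 listed genes outside the members, from which the genes that met both thresholds have been taken out, had median log2 fold changes of -0.54 and -1.40. The direction of the list held under rescaling to equal sums and by TMM, with 118 to 126 called lower with LPS and 120 to 130 with NaBu.

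DNA replication genes, which act earlier in the cell cycle, gave 1 member of 65 tested. With LPS 48 of them were called lower and 6 higher by limma, and with NaBu 55 lower and 7 higher, with median log2 fold changes of -0.42 and -1.24. A mean at least 1.8-fold lower with LPS was reached by 2 of the 65, beside 6.58% of genes with a control mean of at least 100. The member was Tk1, thymidine kinase, which also stands in the list of nucleotide synthesis. It read 8244, 7828 and 8143 in Control, 3047, 3286 and 2889.6 with LPS, and 1228, 1167 and 1083 with LPS+NaBu, and its fall was split evenly, with 49.8% on the LPS step. The DNA repair list gave Neil3 and the helicase Recql4, whose means were 2105 ± 220.0, 1089 ± 78.3 and 723 ± 59.4 (SD, n = 3 each). Of Recql4's exonic bases 59.6% overlap exons of Mfsd3 on the other strand, and the counting may have shared reads there.

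Of the list of Fc and ITAM or ITIM receptors, 3 genes were members. Trem2, a lipid-sensing receptor of macrophages and microglia that signals through Tyrobp, had the highest control level per kilobase of exon of all members, 6399.9 normalised counts. It read 32339.6, 30464 and 32158 in Control, 14625, 17319.8 and 16373 with LPS, and 5696, 5636 and 4893 with LPS+NaBu. Its groups were well apart and the whole fall was 5.85-fold. Cd300a, an inhibitory receptor for phospholipids, had means of 5429.8 ± 129, 2468 ± 29.6 and 1239 ± 15.7 (SD, n = 3 each). Clec4a2, an inhibitory C-type lectin receptor, read 243, 300.03 and 253 in Control, 77.2, 79.8 and 87.6 with LPS, and 26.8, 71.4 and 45.4 with LPS+NaBu. The second step of Clec4a2 was the least clear of these, since its highest LPS+NaBu library came close to its lowest LPS library. Other receptors among the members stood singly in their lists. Cnr2, a cannabinoid receptor of immune cells, had means of 608 ± 41.3, 263 ± 22.1 and 138 ± 20.2, and Siglec15, a sialic acid-binding lectin of osteoclasts, had means of 482 ± 64.6, 223 ± 36.4 and 142 ± 25.2.

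More genes were called higher than lower with LPS in the lists that hold Trem2 and Gpr183. In the list of Fc and ITAM or ITIM receptors, 9 of 38 genes tested were called lower and 23 higher with LPS by limma, and 27 lower and 7 higher with NaBu. In the macrophage identity list, which holds Trem2, 6 of 30 were called lower and 18 higher with LPS, and 23 lower and 5 higher with NaBu. The chemoattractant receptors, which hold Gpr183, had 7 of 22 lower and 11 higher with LPS, and 13 lower and 6 higher with NaBu. The median log2 fold change with LPS was 0.60, 0.58 and 0.72 in the 3 lists, and with NaBu -1.17, -1.29 and -1.31. All 3 lists kept these signs under both rescalings.

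The list of small GTPase regulators also held 3 members. Arhgef6, an exchange factor for Rac and Cdc42, had means of 10039.6 ± 403, 4746 ± 368 and 1286 ± 84.1 (SD, n = 3 each). Arhgef39, an exchange factor of the same class, had means of 1364 ± 36.1, 738 ± 44.3 and 197 ± 11.8, and Racgap1 was the third member in the list. The list as a whole had no common direction, with 38 of 87 called lower and 31 higher with LPS by limma, and 41 lower and 36 higher with NaBu. Rasgrp3 was the only member in the MAPK list.

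Other members were enzymes and carriers, at most 2 to a list. Elovl6, a fatty acid elongase, had means of 2569 ± 160.4, 1039 ± 45.3 and 457 ± 63.7 (SD, n = 3 each). Pnpla7, a lysophospholipase, had means of 3456 ± 57.6, 1579 ± 13.6 and 957 ± 16.7. Cerk, the kinase that phosphorylates ceramide, had means of 13611 ± 489, 6389.7 ± 31.1 and 3431 ± 176. The fatty acid list that holds Elovl6 moved the other way with NaBu, where 33 of 52 genes were called higher and 16 lower by limma after 33 had been called lower and 5 higher with LPS. Slc43a2, a carrier of large neutral amino acids, had means of 7225 ± 140.5, 2728 ± 213 and 1768 ± 4.63, and Slc29a1, a nucleoside carrier, had means of 3907 ± 98.7, 2124 ± 258 and 1403 ± 71.0. Atg9b, a lipid scramblase of autophagy, had means of 2725 ± 97.5, 1114 ± 74.4 and 364 ± 26.3, while 36 of the 46 autophagy genes tested were called higher with NaBu and 6 lower. Erp29, a chaperone of the endoplasmic reticulum, had means of 17898 ± 588, 8447 ± 774 and 5335 ± 199, and 27.7% of its exonic bases overlap Naa25 on the other strand.

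Of 53 pathway lists, 35 held no member, 15 held 1 or 2, and 3 held at least 3, namely mitosis, the small GTPase regulators and the Fc and ITAM or ITIM receptors. In all, 42 members stood in at least 1 list and 50 in none. The rule for naming genes covered 46 members. The other 46 had falls of 2.77-fold to 8.37-fold, with a median of 5.04-fold, LPS steps of 1.82-fold to 4.41-fold and NaBu steps of 1.51-fold to 4.14-fold. Besides mitosis genes, these were Ankle1, Gpr176, Zfp651, Dchs1, Pianp, Pax6, Cyp2s1, Tmem144, Lrfn4, Bsn, Ambp, Frmd4b, Jade1, Tacc2, Hal, Angptl2, Ulbp1, Sapcd2, Fam13c, Abcb4, Mvb12b, Naaladl1, Acot6, Car12, Lrp8, Neurl2, Zfp362, Trub1, Haus4, Stmn1, 5730409E04Rik, 9030617O03Rik, RP24-484G16.12, Gm12750 and RP23-175B15.2. Some of these also serve the mitotic spindle, such as Haus4 of the augmin complex and the microtubule regulator Stmn1. Of Neurl2's exonic bases 45.9% overlap exons of Ctsa on the other strand, which had a control mean of 59250. Of Naaladl1's exonic bases 39.4% overlap exons of Sac3d1 on the other strand, which had a control mean of 1058.

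Values ran smoothly across the thresholds. Kbtbd11 was just inside the LPS threshold, with a ratio of 1.810, and Kif20b and Trmt61a just outside it, with ratios of 1.799 and 1.796. Kif20b, a mitotic kinesin, had means of 4685, 2604 and 820. Recql4 was just inside the NaBu threshold at 1.507, and Gm6576 and Cln6 just outside at 1.49 each. Ahrr and Icam2 were just inside the control minimum at means of 103 and 104, and D630023F18Rik and Gsta3 just outside at 99.4 and 89.4.

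The members did not share a locus or a gene size. They lay on 19 autosomes and the X chromosome, with at most 10 on any of them (chromosome 2, which also held 8.28% of the genes compared), and only Bsn and the long noncoding RNA RP24-484G16.12 lay within 100 kb of each other, where they overlap. Protein-coding genes made up 87 of the 92, beside 3 long noncoding RNAs, Gm6091 and RP23-175B15.2, whose status is to be experimentally tested. The median member spanned 25.7 kb, with 6.15 kb of exons and 10 exons in the canonical transcript, against 24.3 kb, 6.35 kb and 9 over all genes with a control mean of at least 100. Per kilobase of exon the median control level was 393 normalised counts for members, 128 for LPS-lowered genes that were not lowered further, 402 for the 2912 genes lowered at the NaBu step that were under the 1.8-fold threshold at the LPS step, and 299 over all. The named members can be found on GRCm39 at chr14:122189592-122202610 for Gpr183, chr10:5748862-5755913 for Fbxo5, chrX:99810768-99862016 for Dlg3, chr17:75742827-75836076 for Rasgrp3, chr7:135291513-135318299 for Mki67 and chr17:48653429-48661175 for Trem2.

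Promoter composition differed between the mitosis members and the others. In windows from 250 bases before to 50 bases after the start, the ratio of observed to expected CpG was at least 0.6 in 19 of the 22 mitosis members (86.4%) and in 25 of the 70 other members (35.7%), beside 68.3% of 10477 windows of genes with a control mean of at least 100. The median ratio was 0.85 and 0.45, beside 0.73. GC content differed less, with medians of 58.8%, 56.0% and 58.0%.

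Motif letters differed along the same line. A CHR (TTTGAA) stood on either strand in 10 of 22 mitosis members (45.5%) and 13 of 70 other members (18.6%), beside 13.8% of all windows, 13.5% for LPS-lowered genes not lowered further and 17.2% for those lowered at the NaBu step but under the 1.8-fold threshold at the LPS step. The 12 matches in mitosis members had a median position 14 bases after the start. CCAAT was found in 59.1% of mitosis members, 42.9% of other members and 39.6% of all windows, and CHR together with CCAAT in 8 of 22 (36.4%), 5 of 70 (7.14%) and 5.63%. The GC box (GGGCGG) was found in 17 of 22 mitosis members (77.3%), 28 of 70 other members and 58.7% of all windows, and the ETS site (CCGGAAG) in 4 of 22, 0 of 70 and 17.3%. For the PU.1 box (GAGGAAG) the shares were 13.6%, 15.7% and 13.4%, and for the E-box (CACGTG) 18.2%, 11.4% and 10.6%. The ISRE core (GAAANNGAA) was found in 5 of 22 mitosis members (22.7%), 1 of 70 other members (1.43%) and 7.97% of all windows. The other motifs searched on both strands were TTTGGCGC and TTTCCCGC (E2F), CGCATGCG (NRF1), TGTGGTT (RUNX), TGANTCA (AP-1), TGACGTCA (CRE), TCACNCCAC (SRE), GGGANTTTC (NF-kB) and TATAAA (TBP), each in at most 7 members and at most 8.09% of all windows. These shares describe letters in a window, and bases of one motif could also belong to another.

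**Figure D5:**
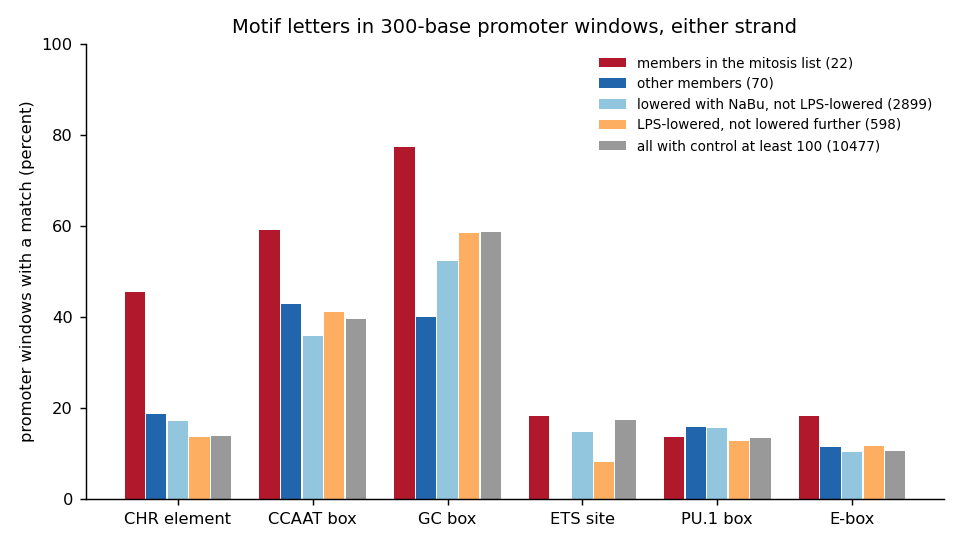
Bars, from 0, give the percent of 300-base promoter windows that hold the letters on either strand, for 5 sets of genes whose sizes stand in the legend, where LPS-lowered means at least 1.8-fold and lowered with NaBu at least 1.5-fold. Mitosis members (red) stand highest for the CHR at 45.5%, the CCAAT box at 59.1% and the GC box at 77.3%. They are also highest for the E-box and the ETS site, at 18.2% each, where all genes reach 17.3% for the ETS site. The other members (blue) are below all genes (grey) for the GC box and the ETS site.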

How the data were processed

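RNA of 9 RAW264.7 libraries was sequenced, 3 per group, and groups and replicate numbers were taken from the sample titles. The deposited values, though called FPKM, are a signal in which gene length plays no part, since the authors took counts per gene and divided each library by a single size factor. Of the values up to 1000 reads, 100% in each library fell within 0.01 of whole reads, and the value of 1 read was that of a median-of-ratios factor inverted. In 3 libraries it lay close to 1, where this check says little. STAR 2.7.7a, DESeq2 and mm39 stand in the processing notes of the submitters, and the study's methods name HISAT2, featureCounts and limma, so the aligner is uncertain. The study's methods name a directional library protocol, but whether counting used strand is not stated by these sources. Identifiers and clone-style names look older than mm39 annotation. Of 43629 identifiers, 89.4% matched GENCODE M39 (GRCm39), which gave all positions, and the rest held 0.245% of the reads. RefSeq promoter windows (GRCm38.p6) were found for 67 members.

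Genes with at least 10 normalised counts in at least 3 libraries (14808) were fitted with limma 3.58.1 in R 4.3.3 on log2(normalised count + 1), all 9 libraries entering 1 model of group means, two-sided, with Benjamini-Hochberg adjustment and calls at an adjusted p under 0.05. The p-values measure only the spread between these libraries. A test with known changes on simulated counts was run first. edgeR 4.0.16 and DESeq2 1.42.0 were run on the recovered reads as alternatives. Members and gene lists were chosen with earlier results of these data known. The genes named are the 20 members with the largest fall from Control to LPS+NaBu, the 10 with the highest control mean, in each list with at least 3 members the 4 with the largest fall, in shorter lists all of them, and the 2 genes on either side of each threshold, of which a few are not reported here. Replicate numbers did not pair the libraries. Promoter windows covered 250 bases before and 50 after the start of the canonical transcript.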

Additional observations from a re-analysis of the deposited data

How the results depend on the processing

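Rescaled to equal sums, the median of all genes shifted by -0.22 with LPS against Control and 0.28 with LPS+NaBu against LPS on the log2 scale, and TMM moved the latter by -0.11. With equal sums 7078 genes were called lower and 2266 higher with LPS against Control by limma, in place of 4568 and 3739, 163 genes met the rule for members, 68 of them among the 92. The LPS-lowered genes then numbered 1302 in place of 693, of which 840 (64.5%) were higher again and 299 (23.0%) between, and 85 of the 92 members were called lower with NaBu. On the recovered reads edgeR called 8268 genes with LPS against Control and 11621 with LPS+NaBu against LPS, DESeq2 8284 and 11502, limma 8307 and 11558. Stricter thresholds of 2-fold for both steps left 29 members, 5 of them in the mitosis list, and 1.5-fold for both gave 245, of them 62 in the list. Without 1 library at a time, there were 87 to 102 members, 442 to 463 genes higher again and 154 to 164 between. Genes called numbered 7520 to 8343 for LPS against Control (4105 to 4560 lower, 3365 to 3783 higher), 10610 to 11498 for LPS+NaBu against LPS (5346 to 5570 and 5171 to 5928) and 10261 to 11433 for LPS+NaBu against Control (4923 to 5290 and 5245 to 6143). With the letters read on 1 strand, the CHR was found in 13.04% of members, CCAAT in 28.3% and the GC box in 27.2%, in mitosis members the 3 were found in 27.3%, 31.8% and 45.5%, and in all windows in 7.09%, 23.98% and 37.4%. In RefSeq windows, tried after seeing the data, the CHR was found in 37.3% of 67 members and 14.2% of all. There CCAAT was found in 52.2% of members and 43.4% of all, and the GC box in 52.2% and 70.9%. Replicate numbers did not pair the libraries (correlations of deviations from -0.044 to 0.020), and with the replicate block 4400 genes were called lower and 3577 higher with LPS, and 5560 and 5904 with NaBu. The cause of these shifts was not tested. Replicates of a member spread by up to 46.8% of the mean with LPS+NaBu (Clec4a2).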
